A study of Mus musculus with 14 samples.

Results

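The genes described here encode the proteasome, the barrel-shaped protease that degrades proteins tagged with ubiquitin. They were taken as the rows of 2 deposited count tables whose symbol begins with Psma to Psmg followed by a number, without the 3 interferon-induced catalytic subunits Psmb8, Psmb9 and Psmb10. The rule found 45 of 23420 rows in both tables. They comprise 7 subunits of the alpha ring, 7 of the beta ring, 6 ATPases, 11 non-ATPase subunits, 5 activators and inhibitors, 7 assembly chaperones and 2 tissue-specific subunits. The first table held livers of p62KO and WT mice (3 libraries each), all of them injected with the liver carcinogen DEN and fed a high-fat diet (HFD). The second held hepatic stellate cells, which store vitamin A and lay down matrix once activated, from p62KO or WT livers. They were immortalized with SV40 antigen and cultured with calcipotriol, a ligand of the vitamin D receptor, or with vehicle, giving 4 groups of 2 libraries. The age and sex of the mice, the kind of p62 allele, the dose and time of calcipotriol and the number of cell lines per genotype are not given here by the sources. Nothing in the labels says that the stellate libraries of a group came from separate cultures, so p-values there measure only the spread between these libraries, and a genotype difference is a difference between the cells used.

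The proteasome has a core particle of stacked rings and a regulatory particle at its ends. The outer alpha rings form the gate, and the inner beta rings hold the cutting sites of Psmb6, Psmb7 and Psmb5. In the regulatory particle, a ring of ATPases (Psmc1 to Psmc6) unfolds the substrate, and the non-ATPase subunits bind ubiquitin chains and remove them. Transcription of the subunit genes is known to be raised together by the factor Nfe2l1 when proteasome activity falls. The protein p62, encoded by Sqstm1, binds ubiquitin chains and carries their cargo to autophagosomes, the other main route of protein degradation.

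Total counts were 17506607 to 20040583 per liver library and 15207117 to 29079258 per stellate library. Sqstm1 stood at 1.56, 2.12 and 1.44 CPM (the count rate per library, with library sizes scaled by the trimmed mean of M-values) in p62KO livers, against 578, 448 and 583 CPM in WT livers. In stellate cells it was at 0.211 to 0.835 CPM in the 4 p62KO libraries, against 316 to 340 CPM in the 4 WT libraries. The summed level of 6 hepatocyte markers was 76027 to 124970 CPM in p62KO livers and 86050 to 116860 CPM in WT livers, and at most 0.215 CPM in any stellate library. Most of the liver sum was Alb, at 54646 to 105340 CPM in p62KO livers and 58672 to 86663 CPM in WT livers. The summed level of 8 stellate cell or myofibroblast markers was 10080 to 19486 CPM in p62KO stellate cells and 6083 to 6761 CPM in WT stellate cells. That sum came from the collagen genes Col1a1 and Col1a2, Acta2, Vim and Pdgfrb. Lrat, which stores vitamin A as esters, had 0 counts in all 8 libraries, and the stellate markers Des and Reln were under 1 CPM in each, so these defining markers were absent or nearly so in the cultured cells. Of the stellate libraries, replicate 2 of p62KO cells with calcipotriol stood apart. Across 43 proteasome genes its difference from replicate 1 followed the GC content of the transcript (Pearson r = 0.861), as it did across 12569 genes (r = 0.797). In the other 3 stellate pairs, taken the other way as replicate 1 minus replicate 2, r across the same 43 genes lay between -0.142 and 0.319. Genes are not independent replicates, so these values are descriptions with no p. The proteasome calls, list medians and named genes of p62KO cells with calcipotriol are therefore also given without that library. Replicate 1 of p62KO cells with vehicle also differed from its partner, with a summed level of 10 interferon response genes of 1224 CPM against 765 CPM in replicate 2. Among them Gbp2 was at 62.9 and 6.49 CPM and Ifit1 at 78.0 and 17.6 CPM in these 2 libraries.

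The promoters of 6 genes are shown because the results below turn on them. Psmb5, Psmb3 and Psmb6 had the smallest p-values in liver, Psmd8 was the only proteasome gene whose 3 p62KO livers all lay above the WT livers, and Psmg4 and Psmd4 had the smallest p-values in stellate cells with calcipotriol. The sequences are RefSeq windows of 300 bases around the transcription start on GRCm38.p6, written 5′ to 3′ on the strand of the gene. Capitals mark the letters TGANNNNGC or their reverse complement, the core of the antioxidant response element that the factors Nfe2l1 and Nfe2l2 are known to bind.
Psmb5 (chr14:54617946-54618245, minus strand): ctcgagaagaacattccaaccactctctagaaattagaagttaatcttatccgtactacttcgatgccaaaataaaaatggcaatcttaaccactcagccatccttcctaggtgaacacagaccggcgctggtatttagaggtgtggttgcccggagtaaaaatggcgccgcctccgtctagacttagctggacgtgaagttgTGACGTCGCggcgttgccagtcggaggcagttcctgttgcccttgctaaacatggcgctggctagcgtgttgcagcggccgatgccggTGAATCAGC
Psmb3 (chr11:97703184-97703483, plus strand): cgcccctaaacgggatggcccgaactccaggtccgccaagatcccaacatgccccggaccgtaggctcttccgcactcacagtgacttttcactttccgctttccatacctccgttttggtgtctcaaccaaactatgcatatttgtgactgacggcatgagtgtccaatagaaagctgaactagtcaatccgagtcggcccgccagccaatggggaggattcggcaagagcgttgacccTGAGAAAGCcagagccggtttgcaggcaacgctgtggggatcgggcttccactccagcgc
Psmb6 (chr11:70525107-70525406, plus strand): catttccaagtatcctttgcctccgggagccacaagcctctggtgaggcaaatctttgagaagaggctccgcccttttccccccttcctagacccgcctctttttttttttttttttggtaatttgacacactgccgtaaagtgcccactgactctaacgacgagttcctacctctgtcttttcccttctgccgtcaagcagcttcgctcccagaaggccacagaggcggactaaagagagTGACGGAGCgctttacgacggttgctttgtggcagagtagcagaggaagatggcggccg
Psmd8 (chr7:29180624-29180923, minus strand): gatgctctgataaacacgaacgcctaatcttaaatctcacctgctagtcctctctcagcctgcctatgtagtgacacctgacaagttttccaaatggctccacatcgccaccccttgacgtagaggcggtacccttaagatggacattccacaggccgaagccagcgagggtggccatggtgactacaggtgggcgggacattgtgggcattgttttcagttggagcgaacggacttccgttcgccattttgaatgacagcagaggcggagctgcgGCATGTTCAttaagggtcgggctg
Psmg4 (chr13:34162714-34163013, plus strand): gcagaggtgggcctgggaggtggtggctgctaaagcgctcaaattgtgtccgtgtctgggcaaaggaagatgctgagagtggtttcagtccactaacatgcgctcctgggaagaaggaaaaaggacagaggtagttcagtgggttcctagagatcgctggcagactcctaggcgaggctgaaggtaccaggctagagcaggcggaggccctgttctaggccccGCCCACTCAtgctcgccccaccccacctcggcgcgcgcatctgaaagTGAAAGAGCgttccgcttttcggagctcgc
Psmd4 (chr3:95042565-95042864, minus strand): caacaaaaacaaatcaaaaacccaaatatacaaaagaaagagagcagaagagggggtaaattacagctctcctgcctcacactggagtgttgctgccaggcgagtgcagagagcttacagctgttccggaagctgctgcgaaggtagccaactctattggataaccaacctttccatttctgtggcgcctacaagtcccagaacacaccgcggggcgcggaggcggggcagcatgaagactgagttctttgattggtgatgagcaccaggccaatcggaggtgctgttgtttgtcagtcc
Psmb5 and Psmg4 held 2 matches each, Psmb3, Psmb6 and Psmd8 held 1 match each, and Psmd4 held 0. The windows run past the transcription start. By the annotated gene starts, the matches of Psmb3 and Psmd8 and the later match of Psmb5 and of Psmg4 lie downstream of it. Windows were found for 37 of the 45 genes, 3 of which had 2 windows. On either strand TGANNNNGC was found in 21 of these 37 genes (23 of 40 windows, 57.5%), against 41.3% of all 32851 windows. The stricter form TGACTCAGC, of the same length and one case of TGANNNNGC, was in 0 of the 40 windows and in 0.454% of all windows. CCAAT, a box of another kind whose matches may overlap those of TGANNNNGC, was in 13 of the 40 windows (32.5%) and in 37.4% of all windows. The shares are descriptions, and a match is not a binding site.

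In livers, transcripts of nearly all proteasome genes were lower without p62, by amounts that did not pass the test one by one. Of 45 genes, 44 had enough counts to be tested. Of these, 40 had a log2 fold change below 0, against 48.3% of all 12851 genes tested. In 32 the 3 p62KO livers all lay below the 3 WT livers, against 19.2% of all genes, and in 28 the unadjusted p was under 0.05 with a lower level, against 14.8% of all genes. That last count was 8 with scaling by total counts (8.35% of all genes), and without 1 liver it ran from 9 without p62KO replicate 2 (8.75%) to 34 without p62KO replicate 3 (20.1%). It was 12 without p62KO replicate 1 (11.5%), 14 without WT replicate 1 (10% of all genes) and 10 without WT replicate 2 (10.4%). The median log2 fold change was -0.35 over the 44 genes and 0.02 over all genes. No proteasome gene passed the edgeR quasi-likelihood test with Benjamini-Hochberg adjustment at 0.05, while 3.45% of all genes passed as lower and 4.48% as higher. DESeq2 on the same counts called 10 of the 44 lower (7.25% of its genes were called lower): Psma4, Psma6, Psma7, Psmb1, Psmb3, Psmb5, Psmb6, Psmb7, Psmd13 and Psme2. In bulk tissue, fewer cells of a type and less RNA per cell cannot be told apart.

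**Figure D1:**
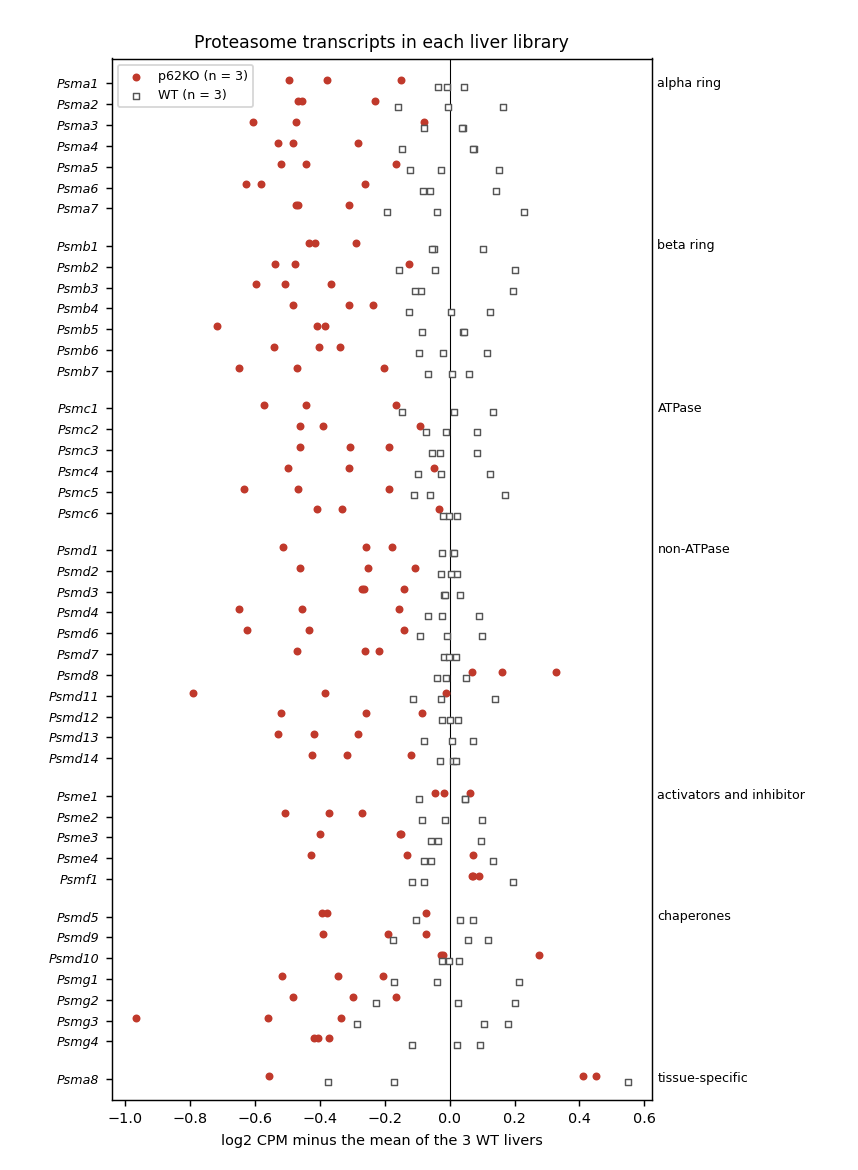
Level of each of 44 proteasome transcripts in each liver library, as log2 CPM minus the mean of the 3 WT livers (horizontal axis), with p62KO livers as filled circles and WT livers as open squares. In 32 genes the 3 circles lie left of the 3 squares, and in Psmd8 they lie right of them.

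The 3 p62KO livers differed in how low they were. The median of the 44 genes, as log2 CPM minus the WT mean, was -0.48, -0.39 and -0.16 in p62KO replicates 1, 2 and 3, and -0.02, 0.06 and -0.05 in WT replicates 1, 2 and 3. The proteasome genes held 0.306%, 0.336% and 0.350% of all counts in the p62KO livers and 0.384%, 0.402% and 0.348% in the WT livers, so that the shares of the groups overlapped. Replicate 3 was the highest p62KO liver in 35 of the 40 genes with a fold change below 0. Without it edgeR called 28 proteasome genes lower (13.2% of all genes) and 3669 genes in all, against 0 and 1020 with it. Leaving out any other single liver gave 0 proteasome genes and 3 to 110 genes in all.

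All 7 alpha ring subunits were lower in each p62KO liver than in any WT liver, as were 19.2% of all genes, and their median log2 fold change was -0.39. With scaling by total counts only 16 of all 44 proteasome genes lay below WT without overlap, against 11.7% of all genes. Psma6, a subunit of that ring, stood at 89.8, 92.7 and 116 CPM in p62KO livers, against 131, 153 and 133 CPM in WT livers. Its log2 fold change was -0.49 ± 0.139 (SE, n = 3 each), the largest of the ring, with an edgeR adjusted p of 0.0677. Psma4 was at 99.2, 96.1 and 114 CPM in p62KO livers and 146, 146 and 125 CPM in WT livers (log2 fold change -0.43 ± 0.124, edgeR adjusted p = 0.0677). The other 5 lay between -0.34 for Psma1 and -0.43 for Psma7. The 7 changes thus lay between -0.49 and -0.34, with an SD of 0.0498. Their median SE of 0.134 measures the spread between livers, which genes of the same livers share. The SD and the SE are therefore not comparable.

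The beta ring had the lowest median of the roles, -0.43. In 6 of its 7 subunits the p62KO livers all lay below the WT livers, against 19.2% of all genes. Psmb5, the subunit with the chymotrypsin-like site, was at 55.2, 69.5 and 68.3 CPM in p62KO livers, against 93.5, 93.5 and 85.5 CPM in WT livers. The highest p62KO liver was thus below the lowest WT liver, and the log2 fold change of -0.50 ± 0.123 had the smallest adjusted p of all proteasome genes, 0.0519 by edgeR. Psmb3, a structural subunit, was at 46.5, 49.5 and 54.6 CPM in p62KO livers and 66.3, 80.6 and 65.4 CPM in WT livers (-0.49 ± 0.126, edgeR adjusted p = 0.0541). Psmb6, the subunit with the caspase-like site, was at 65.6, 72.1 and 75.4 CPM in p62KO livers and 94.1, 103 and 89.4 CPM in WT livers (-0.43 ± 0.111, edgeR adjusted p = 0.0553). The third catalytic subunit, Psmb7, was lower by a like amount (-0.43 ± 0.138). Psmb2 was the one subunit of the ring in which the groups overlapped, at 42.2, 40.5 and 53.9 CPM in p62KO livers and 57.0, 67.7 and 52.7 CPM in WT livers.

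In the regulatory particle the 6 ATPases had a median of -0.31, and 5 of 6 lay below WT without overlap, against 19.2% of all genes. Psmc5, an ATPase of the unfolding ring, was at 57.8, 64.7 and 78.7 CPM in p62KO livers and 85.97, 101 and 83.0 CPM in WT livers, with a log2 fold change of -0.42 ± 0.147 (edgeR adjusted p = 0.1004). Of 11 non-ATPase subunits, 9 were lower without overlap, against the same 19.2% of all genes, with a median of -0.31. Psmd13 had the smallest p among them, at 71.3, 77.1 and 84.6 CPM in p62KO livers and 97.6, 108 and 104 CPM in WT livers (-0.41 ± 0.111, edgeR adjusted p = 0.0604). The ubiquitin receptor Psmd4 was at 80.2, 91.9 and 113 CPM in p62KO livers and 124, 134 and 120 CPM in WT livers (-0.41 ± 0.147). The deubiquitinating subunit Psmd14 was lower by a smaller amount, -0.28 ± 0.111. Psmd8 went the other way: it was at 138, 165 and 147 CPM in p62KO livers and 136, 128 and 130 CPM in WT livers. All 3 p62KO livers lay above the WT livers, as in 18.4% of all genes, and the log2 fold change of 0.19 ± 0.115 had an edgeR adjusted p of 0.284.

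The activators and the inhibitor, 5 genes, had the median nearest to 0 among the main roles, -0.15. Psme1 and Psme2 encode the partners of one ring, the interferon-induced PA28 activator, and their values differed. Psme2 was at 59.1, 53.8 and 63.4 CPM in p62KO livers and 75.7, 82.0 and 72.2 CPM in WT livers, a log2 fold change of -0.38 ± 0.111 (edgeR adjusted p = 0.0686). Psme1 was at 109, 103 and 101 CPM in p62KO livers and 108, 108 and 97.6 CPM in WT livers, which overlapped, and its fold change near 0 turned positive with other scalings. The difference between the partners was not tested. Psmf1, which encodes an inhibitor of the core particle, also overlapped (0.07 ± 0.113). Among the 7 assembly chaperones, which bring rings and ATPases together and then leave, the median was -0.32. Psmg3 had the lowest fold change of all 44 genes, -0.62 ± 0.205 (edgeR adjusted p = 0.0911), at 8.77, 6.59 and 10.3 CPM in p62KO livers and 13.97, 14.7 and 10.6 CPM in WT livers. Psmg4 was at 4.73, 4.57 and 4.61 CPM in p62KO livers and 5.67, 6.57 and 6.24 CPM in WT livers. Psmd10, an ATPase chaperone also called gankyrin, overlapped between groups (0.08 ± 0.127). Psmd9 (-0.22 ± 0.127) overlaps the gene Hpd on the opposite strand, and whether the authors counted by strand is not given in the sources used here.

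Few reads came from the tissue-specific subunits. Psma8, the alpha subunit of the testis, had 13 to 28 counts in the 3 p62KO livers (0.626 to 1.36 CPM) and 13 to 29 counts in the 3 WT livers (0.724 to 1.47 CPM). It had 0 counts in all 8 stellate libraries, which allows a level of up to 0.0190 CPM at 3 counts over the 8 libraries. Psmb11, the beta subunit of the thymic cortex, had 0 counts in the 6 livers (up to 0.0263 CPM) and 1 count in the 8 stellate libraries. These limits cover counting error only.

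Genes that work with the proteasome had a median log2 fold change of -0.20 over 39 tested in liver. Of these, 10 had an unadjusted p under 0.05, against 32.5% of all genes. By edgeR 3 passed as lower and 0 as higher, against 3.45% and 4.48% of all genes. The 3 that passed included Sqstm1 and Zfand2b, which binds the proteasome. Zfand2b was at 14.2, 14.1 and 16.3 CPM in p62KO livers and 20.8, 23.6 and 21.1 CPM in WT livers, without overlap (-0.56 ± 0.115, edgeR adjusted p = 0.0402). Pomp, the chaperone that matures the core particle, had a log2 fold change of -0.48 ± 0.149 in the edgeR fit (adjusted p = 0.0808). Nfe2l1 was at 122, 174 and 191 CPM in p62KO livers and 211, 183 and 281 CPM in WT livers, which overlapped (-0.47 ± 0.222, edgeR adjusted p = 0.187). Nfe2l2 was at 100, 108 and 96.7 CPM in p62KO livers and 86.5, 71.8 and 83.8 CPM in WT livers (0.33 ± 0.116, edgeR adjusted p = 0.101).

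Other cell type markers and the scaling moved with the liver values. Of 5 markers of dividing cells 5 rose (median 2.59), at a summed 20.5 to 38.5 CPM in p62KO livers against 3.29 to 5.32 CPM in WT livers. Of 8 stellate cell or myofibroblast markers 4 rose (summed 353 to 679 CPM in p62KO livers, 177 to 203 CPM in WT livers), of 6 macrophage markers 3 rose (549 to 631 CPM in p62KO livers, 237 to 367 CPM in WT livers), and of 5 cholangiocyte markers 1 rose (161 to 523 CPM in p62KO livers, 57.7 to 107 CPM in WT livers). Of 6 hepatocyte markers 1 fell, with 3 above 0, 3 below and a median of -0.01. In 2 the p62KO livers all lay below the WT livers, and in 0 above. Ttr was at 2936, 2838 and 3361 CPM in p62KO livers and 5974, 5516 and 6290 CPM in WT livers. Cyp2e1 was at 3004, 4973 and 8827 CPM in p62KO livers and 11779, 12356 and 12815 CPM in WT livers. Ass1, which enters the median, had only 3 to 13 counts in each liver. None of 5 endothelial, 4 T and NK cell or 3 tested B cell markers passed by edgeR, with 1, 0 and 0 at an unadjusted p under 0.05. The part of these cells in the proteasome values was not tested. Scaling by total counts moved the median of all genes to 0.15 and that of the proteasome genes to -0.23, so that relative to all genes they stood at -0.38, against -0.37 in the main scaling. With total counts 16 of the 44 lay below WT without overlap, against 11.7% of all genes.

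The catalytic subunits can be exchanged for the interferon-induced Psmb8, Psmb9 and Psmb10, which form the immunoproteasome. The mean log2 level per transcript length of these 3, minus that of Psmb5, Psmb6 and Psmb7, was -1.38, -2.29 and -2.44 in p62KO livers and -2.45, -2.45 and -2.55 in WT livers. It averaged -2.04 ± 0.571 in p62KO livers and -2.48 ± 0.056 in WT livers (SD, n = 3 each). All 3 p62KO livers lay above the WT livers, by a mean of 0.44, with a two-sided exact permutation p of 0.1, the smallest this design can give. The difference rests largely on p62KO replicate 1, and was 0.117 without it. That liver stood apart in 4 T and NK cell markers, with a summed level of 25.002 CPM, against 4.86 and 5.02 CPM in the other p62KO livers and 6.03, 3.79 and 6.58 CPM in WT livers. Tap1, an interferon-induced peptide transporter, was at 46.9 CPM there, against 29.3 and 22.6 CPM in the other p62KO livers and 22.9, 19.1 and 19.3 CPM in WT livers. The part of these cells in the ratio was not tested. In the same liver Psmb8 was at 63.9 CPM, against 43.3 and 41.5 CPM in the other p62KO livers and 39.7, 41.3 and 37.8 CPM in WT livers. In the edgeR fit none of the 3 induced subunits passed (Psmb8 0.32 ± 0.174, Psmb9 0.05 ± 0.276, Psmb10 -0.29 ± 0.173), and 0 of the 3 had an unadjusted p under 0.05. Psmb5, Psmb6 and Psmb7 had -0.50, -0.43 and -0.43, so the difference of the ratio lay mostly in these constitutive subunits. In p62KO replicates 2 and 3 Psmb9 was at 13.1 and 13.1 CPM, against 14.4 to 18.4 CPM in WT livers. Psmb10 was at 24.7 and 23.8 CPM there, against 32.4 to 36.3 CPM in WT livers. In stellate cells the induced subunits made up 2.18% to 4.84% of the summed level of the 6 per length in p62KO libraries and 2.71% to 3.44% in WT libraries, against 16.5% to 28.4% in p62KO livers and 15.4% to 16.1% in WT livers.

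Per kilobase of transcript, the beta ring was the more even of the core rings in liver, with the highest subunit 1.68 times the lowest in p62KO livers and 1.74 times in WT livers. There the beta ring ran from Psmb2 to Psmb6, at 53.0 ± 8.48 and 89.0 ± 6.30 CPM per kilobase in p62KO livers and 68.9 ± 8.98 and 120 ± 8.96 CPM per kilobase in WT livers (SD, n = 3 each). The alpha ring had a wider range, from Psma2 at 20.9 ± 1.997 to Psma6 at 95.4 ± 13.6 CPM per kilobase in p62KO livers, and from 27.4 ± 3.06 to 134 ± 11.9 CPM per kilobase in WT livers. These ranges depend on the transcript chosen for the length, which was 2911 bases for Psma2 and 1239 for Psma5. Before division by length Psma2 was at 79.1, 88.8 and 71.0 CPM in WT livers, above Psma5 at 65.5, 74.2 and 61.2 CPM. The low place of Psma2 thus rests in part on its length. The chaperones were low, with medians of 9.68 CPM per kilobase in p62KO livers and 11.6 CPM per kilobase in WT livers. In stellate cells with vehicle the beta ring was less even. Psmb5 was its lowest member, at 30.6 ± 0.749 CPM per kilobase in p62KO cells and 31.4 ± 3.18 CPM per kilobase in WT cells (SD, n = 2 each). The highest was Psmb4 in p62KO cells, at 282 ± 17.9, and Psmb7 in WT cells, at 217 ± 12.2 CPM per kilobase. The liver and stellate tables were scaled separately, so no test was made between them.

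In stellate cells with vehicle the proteasome genes showed no common direction between p62KO and WT cells. The median log2 fold change over 43 tested genes was 0.00 and that over all 12681 genes 0.03, with 22 genes above 0 and 21 below (52.1% and 47.9% of all genes). By edgeR 0 of 43 passed, against 12.9% of all genes, and 3 had an unadjusted p under 0.05, against 29.7% of all genes. DESeq2 called 1 higher, Psmg4 (9.01% of its genes were called higher). Without p62KO vehicle replicate 1 edgeR also called 0, with a median of 0.05 over the 43 genes. The p62KO libraries lay above the WT libraries without overlap in 12 genes and below in 10, against 34.6% and 34.2% of all genes. Psmg4, a chaperone of alpha ring assembly, was at 10.8 and 13.8 CPM in p62KO cells and 5.91 and 6.56 CPM in WT cells (log2 fold change 0.97 ± 0.304, edgeR adjusted p = 0.0693). Psmb4, a structural beta subunit, was at 348 and 318 CPM in p62KO cells and 232 and 234 CPM in WT cells (0.52 ± 0.165, edgeR adjusted p = 0.0733). Psma2, in the alpha ring and overlapping the gene AW209491 on its strand, was at 208 and 249 CPM in p62KO cells and 166 and 161 CPM in WT cells (0.49 ± 0.194, edgeR adjusted p = 0.134). In each of these 3 genes both p62KO libraries were above both WT libraries. The lowest fold change was that of the ATPase Psmc2, at 248 and 282 CPM in p62KO cells and 358 and 339 CPM in WT cells (-0.39 ± 0.175, edgeR adjusted p = 0.173). Without either one of the p62KO calcipotriol libraries, which share the spread estimate, edgeR called Psma2, Psmb2, Psmb4, Psmd4 and Psmg4 higher and Psmc2 and Psmd1 lower. These 5 and 2 of 43 stand against 13.4% and 13.6% of all genes higher and 14.3% and 14.2% lower in the fits without replicate 1 and without replicate 2, so they are no larger a share than the background.

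**Figure D2:**
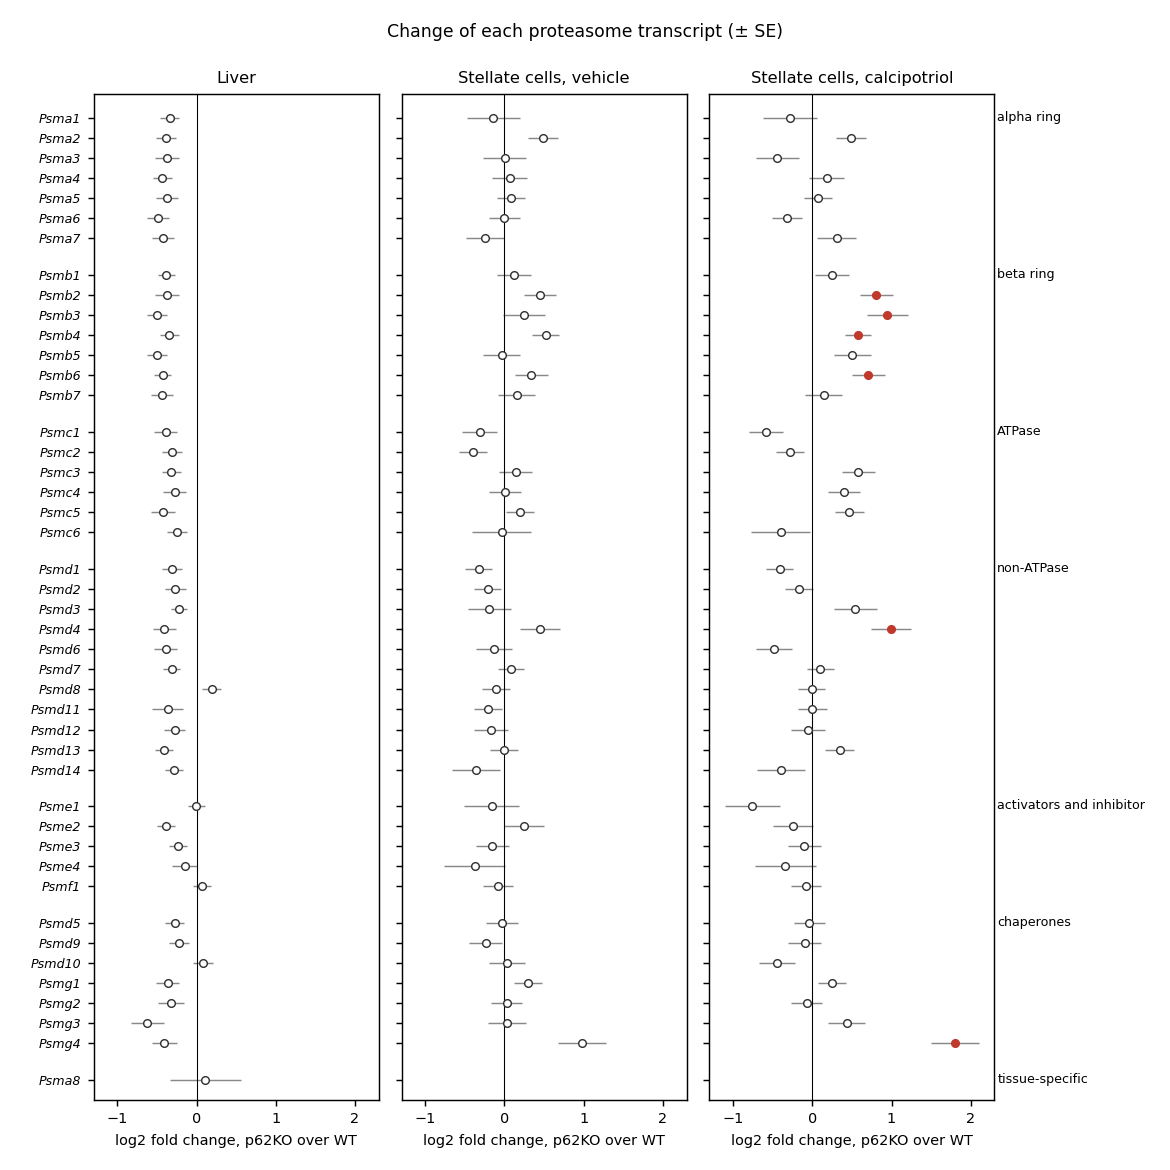
Log2 fold change of p62KO over WT (horizontal axis) with its SE for each proteasome gene, in liver, in stellate cells with vehicle and in stellate cells with calcipotriol. Filled red points passed the edgeR test at an adjusted p of 0.05, which 6 genes did, all of them in stellate cells with calcipotriol, and nearly all liver points lie below 0.

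With calcipotriol, 6 of 43 proteasome genes rose in p62KO against WT stellate cells by edgeR and 0 fell, against 10.3% of all genes higher and 9.53% lower. As a share of those tested this was 14%, near the background, and the median of the 43 was 0.00. At an unadjusted p under 0.05, 9 were higher and 2 lower, against 19.6% and 18.3% of all genes. DESeq2 called the same 6 genes and none lower, against 12.3% of its genes higher and 11.8% lower. They were 4 subunits of the beta ring, the ubiquitin receptor Psmd4 and the chaperone Psmg4. Psmg4 was at 15.3 and 23.7 CPM in p62KO cells and 4.71 and 6.48 CPM in WT cells, a log2 fold change of 1.80 ± 0.305 (edgeR adjusted p = 0.00767). Psmd4 was at 230 and 401 CPM in p62KO cells and 157 and 161 CPM in WT cells (0.99 ± 0.253, edgeR adjusted p = 0.0304). In both genes the second p62KO library was the higher one, and both p62KO libraries were above the WT libraries.

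In the beta ring, all 7 subunits had a positive fold change, with a median of 0.58. Psmb2 was at 187 and 267 CPM in p62KO cells and 121 and 138 CPM in WT cells (0.81 ± 0.208, edgeR adjusted p = 0.0308). Psmb3 was at 136 and 224 CPM in p62KO cells and 83.9 and 103 CPM in WT cells (0.95 ± 0.261, edgeR adjusted p = 0.0382). Both structural subunits were thus above WT in each p62KO library. Psmb4 was at 360 and 364 CPM in p62KO cells and 234 and 250 CPM in WT cells (0.58 ± 0.165, edgeR adjusted p = 0.0417), and its p62KO libraries were close to each other. Psmb6 was at 161 and 225 CPM in p62KO cells and 111 and 126 CPM in WT cells (0.71 ± 0.208, edgeR adjusted p = 0.0457). The alpha ring had a median of 0.07, the ATPases 0.06, the non-ATPase subunits -0.01, the activators and inhibitor -0.25 and the chaperones -0.04. Without p62KO calcipotriol replicate 2 the medians were 0.429 for the beta ring, 0.166 for the alpha ring, 0.133 for the ATPases, -0.00934 for the non-ATPase subunits, -0.118 for the activators and inhibitor and 0.0878 for the chaperones. Among the activators the lowest was Psme1, at 14.6 and 19.7 CPM in p62KO cells and 29.9 and 28.1 CPM in WT cells (-0.76 ± 0.343, edgeR adjusted p = 0.143). Without that library its log2 fold change was -1 (edgeR adjusted p = 0.166). Psme1 is induced by interferon, and of 10 interferon response genes 8 lay below 0 and 2 fell (median -0.94), with a summed level of 551 and 810 CPM in p62KO cells and 1092 and 1154 CPM in WT cells. Without that library 8 lay below 0 and 1 fell (median -0.863). In p62KO cells with vehicle Psme1 was at 31.1 CPM in replicate 1, the library with more interferon response RNA, and 13.99 CPM in replicate 2. The part of interferon in these values was not tested.

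**Figure D3:**
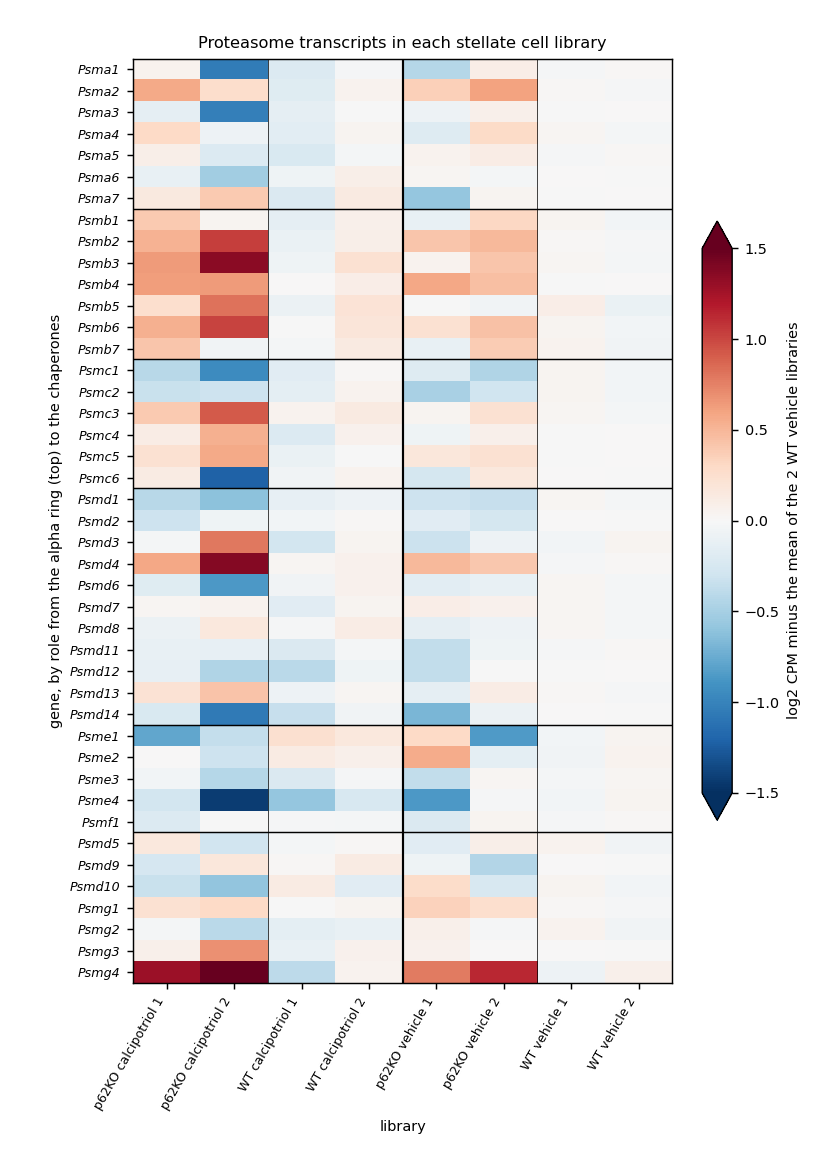
Heat map of 43 proteasome transcripts (rows, by role) in the 8 stellate libraries (columns), coloured by log2 CPM minus the mean of the 2 WT vehicle libraries. The column of p62KO calcipotriol replicate 2 holds the strongest colours in both directions, and Psmg4 is red in all 4 p62KO libraries.

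Several of these calls rested on single libraries. The number of proteasome genes that rose was 0 without either WT calcipotriol library, when 1.23% of all genes rose without replicate 1 and 0.901% without replicate 2. It was 1 without either WT vehicle library (Psmg4), against 4.46% and 4.42% of all genes, and 5 without either p62KO vehicle library (with Psme1 lower), against 11.1% and 10.6% of all genes. Without p62KO calcipotriol replicate 1 it was 13, with 9 lower, against 21.9% of all genes higher and 24.3% lower. Without p62KO calcipotriol replicate 2, the library that followed GC content, 5 rose, against 6.91% of all genes: Psma2, Psmb2, Psmb4, Psmd4 and Psmg4. In that fit Psmg4 had a log2 fold change of 1.43 (edgeR adjusted p = 0.0214), Psmd4 0.515 (0.0261), Psmb4 0.556 (0.0255) and Psmb2 0.512 (0.0339), while Psmb3 (0.528, 0.104) and Psmb6 (0.429, 0.0819) did not pass. In 8 fits that each left out 1 stellate library, Psmg4 passed in 6, Psmd4, Psmb2 and Psmb4 in 4, Psmb3 in 3 and Psmb6 in 1. A fit of the calcipotriol libraries alone called only Psmg4, which was also the only one of the 6 with at least a 2-fold change.

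**Figure D4:**
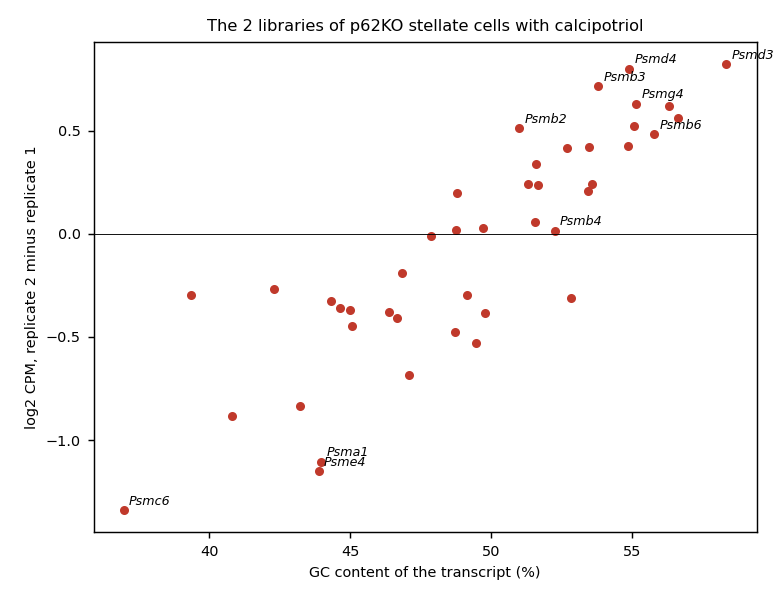
Log2 CPM of p62KO calcipotriol replicate 2 minus replicate 1 (vertical axis) against the GC content of the transcript in percent (horizontal axis), 1 point for each of 43 proteasome genes. Points climb from Psmc6 at 37.0% GC and -1.34 to Psmd3 at 58.3% GC and 0.82.

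The difference between those 2 libraries was large for single genes. Psmd3, at 58.3% GC, was at 222 CPM in replicate 1 and 394 CPM in replicate 2, while the ATPase Psmc6, at 37.0% GC, was at 316 and 125 CPM. With an offset for GC content in each library, 10 proteasome genes rose and 1, Psme1, fell, against 15.7% of all genes higher and 14.1% lower. The 6 called genes lie at 51.0% to 55.8% GC, and the fold change of the 43 genes against GC content had r = 0.53 (12569 genes, Spearman rho = 0.474). The part of GC content in these calls was not tested beyond that offset, which left out Psmb6 (adjusted p = 0.0952) and kept the other 5.

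The stellate fold changes also followed the chromosome. With vehicle the median log2 fold change of the other genes was 0.43 on chromosome 3, 0.34 on chromosome 4 and 0.42 on chromosome 13, against -0.36 on chromosome 5. Psmb4 and Psmd4 lie on chromosome 3, Psmb2 on 4, and Psma2 and Psmg4 on 13, while the lowest, Psmc2, lies on 5. Over 43 genes, the log2 fold change and the median of the other genes on the same chromosome had r = 0.646 with vehicle and 0.569 with calcipotriol, against 0.184 over 44 genes in liver. With calcipotriol the medians were 0.21 on chromosome 3, 0.43 on 4 and 0.22 on 13, and 0.17 on chromosome 11, which holds Psmb3 and Psmb6. After the median of each chromosome was taken off, 3 proteasome genes rose with calcipotriol, against 6.47% of all genes: Psmg4 (1.67, adjusted p = 0.0258), Psmb5 and Psmg3. The other 5 called genes did not pass then by edgeR, with adjusted p from 0.0605 to 0.201. Their log2 fold changes with calcipotriol were then 0.818 for Psmd4, 0.751 for Psmb3, 0.518 for Psmb6, 0.38 for Psmb4 and 0.369 for Psmb2. These values include p62KO calcipotriol replicate 2, the library that followed GC content. Without that library, and with chromosome medians kept, they were 0.515 for Psmd4, 0.528 for Psmb3, 0.429 for Psmb6, 0.556 for Psmb4 and 0.512 for Psmb2. No fit combined both steps, so what would remain after both is not known. With vehicle, taking off the chromosome medians moved Psmd4 from 0.446 to 0.0525, Psmb4 from 0.519 to 0.125 and Psmb2 from 0.448 to 0.134. Psmg4 went from 0.975 to 0.572, Psmb3 from 0.246 to 0.234 and Psmb6 from 0.336 to 0.327. The part of chromosome-wide shifts in these calls was not tested beyond this.

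**Figure D5:**
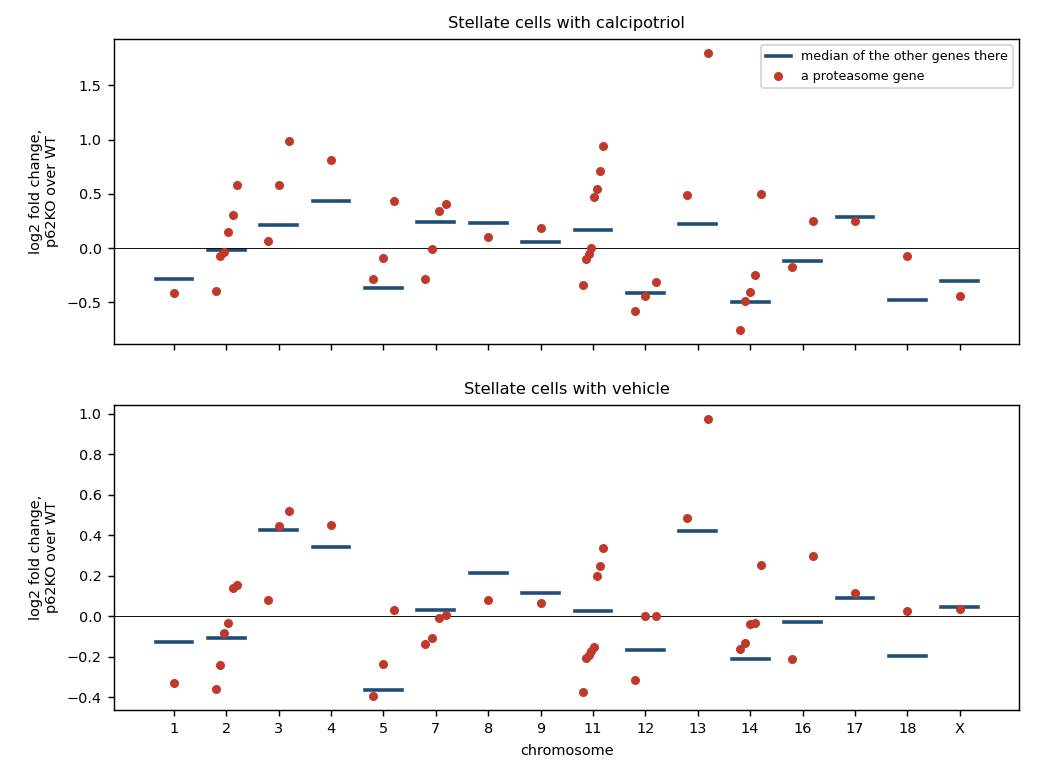
Log2 fold change of p62KO over WT for each proteasome gene (points) by chromosome, with the median of the other genes on that chromosome (bars), in stellate cells with calcipotriol (top) and with vehicle (bottom). On chromosomes 3, 4 and 13 the bars lie above 0 in both panels, and on chromosome 5 they lie below 0.

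Among the 39 genes that work with the proteasome, 4 rose and 4 fell in p62KO cells with calcipotriol by edgeR. Of all genes 10.3% rose and 9.53% fell, so these counts were near the background. Shfm1, which encodes a small subunit of the regulatory particle, was at 197 and 248 CPM in p62KO cells and 93.2 and 111 CPM in WT cells (1.12 ± 0.196, adjusted p = 0.00879). The others that rose included Ubqln4, a ubiquitin receptor that delivers cargo (0.68), and the protease Ddi2, which cuts and activates Nfe2l1 (1.02). Besides Sqstm1, Nfe2l2 (-0.89 ± 0.197, edgeR adjusted p = 0.0198), the ubiquitin-activating enzyme Uba6 (-1.38) and Zfand2a (-0.76) fell. Without p62KO calcipotriol replicate 2, Shfm1 (0.932, edgeR adjusted p = 0.0127), Ubqln4 (0.604), Nfe2l2 (-0.704), Uba6 (-0.867) and Zfand2a (-0.758) still passed, and Ddi2 did not (0.618, edgeR adjusted p = 0.171). In that fit the median log2 fold change of the 39 was -0.013, against -0.21 with all libraries. With vehicle only Sqstm1 passed by edgeR, and 7 had an unadjusted p under 0.05, against 12.9% and 29.7% of all genes. In these cells with calcipotriol, genes of the marker lists moved too: of 7 tested stellate cell or myofibroblast markers 3 rose and 1 fell (summed 12593 to 19486 CPM in p62KO cells, 6083 to 6618 CPM in WT cells). Of 3 tested cholangiocyte markers 1 rose (Krt19) and 2 fell (Sox9 and Spp1), the 1 tested endothelial marker, Kdr, fell, and of 5 markers of dividing cells 1 rose and 1 fell. Krt7, Epcam, Pecam1, Cdh5, Stab2 and Lyve1 were each at most 0.517 CPM in any stellate library and were not tested. None of 3 tested macrophage markers passed by edgeR, with 0 at an unadjusted p under 0.05. Without p62KO calcipotriol replicate 2 the median of the stellate cell or myofibroblast markers was 0.405, against 0.757 with it. That of the cholangiocyte markers was -1.18 (-1.15 with it) and that of the dividing cell markers -0.218 (-0.439 with it). The endothelial marker was at -2.35 (-2.12 with it) and the macrophage median at -0.799 (-0.590 with it). Whether these markers came from other cells in the cultures was not tested, nor was their part in the proteasome values.

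Calcipotriol itself changed no proteasome gene past the threshold. In p62KO cells edgeR called 0 of 12681 genes (1714 at an unadjusted p under 0.05) and DESeq2 54, and 0 of 43 proteasome genes by either tool. At an unadjusted p under 0.05, 6 were higher with calcipotriol, 14% against 8.19% of all genes: Psmb3, Psmb5, Psmc3, Psmd3, Psmd4 and Psmg4. Psmb3 had the smallest p, at 136 and 224 CPM with calcipotriol and 90.5 and 117 CPM with vehicle (0.79 ± 0.260, edgeR adjusted p = 0.361). That count of 6 was 0 without p62KO calcipotriol replicate 2 and 0 without p62KO vehicle replicate 1, against 1.53% and 3.03% of all genes. Without p62KO calcipotriol replicate 1 edgeR called 12 higher and 6 lower at the adjusted threshold, against 16.4% and 18.4% of all genes. Without replicate 2 the log2 fold change of Psmb3 was 0.388 (edgeR adjusted p = 0.94). In WT cells edgeR called 0 genes (301 unadjusted), DESeq2 16, and 0 proteasome genes, with 0 at an unadjusted p under 0.05, against 2.37% of all genes, and a median of -0.02. The lowest fold change was that of the activator Psme4, at 152 and 192 CPM with calcipotriol and 222 and 233 CPM with vehicle (-0.40, 95% interval -1.28 to 0.48). The difference between the responses of p62KO and WT cells passed in 0 genes by edgeR (677 unadjusted) and 0 by DESeq2, and in 0 proteasome genes (0 unadjusted, against 5.34% of all genes). It was largest for Psmg4 (0.82 ± 0.425, edgeR adjusted p = 0.708), and 0.449 for that gene without p62KO calcipotriol replicate 2, when 0 proteasome genes passed and 0 had an unadjusted p under 0.05. The comparisons in stellate cells share libraries, so their counts are not independent of each other.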

How the data were processed

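Polyadenylated RNA was sequenced from 6 liver and 8 stellate cell libraries. The authors deposited whole-number read counts per gene symbol, 1 table per tissue; the name of the stellate table names another unit, but its values are whole counts. The build was mm10, per the submitters' processing notes; the aligner, the counter and the treatment of reads that map to several genes are not given in the sources used here. Groups come from the sample titles. Each table was fitted whole with edgeR 4.0.16 in R 4.3.3 (filterByExpr, TMM scaling, quasi-likelihood test, Benjamini-Hochberg adjustment at 0.05), stellate libraries in 1 fit of 4 groups. Contrasts were set with limma 3.58.1, and DESeq2 1.42.0 was an alternative. The SE is the log2 fold change over the root of the F statistic. Levels per library carry a prior count of 2 on the log2 scale, and the catalytic ratio a pseudocount of 0.1 CPM. Lengths, GC content and chromosomes are from GENCODE M21, on the same build as mm10. Length and GC content are those of a single transcript per gene. Transcripts with a RefSeq match came first, then protein-coding ones, and then the longest was taken. The script was tested on simulated counts. A proteasome gene was named with its values if it passed in a comparison or had the smallest p of its role. A gene of the other lists was named if it passed. Further genes that met neither rule, among them Psma6, Psmd8, Psmd14, Psmf1, Psmd10, Pomp and Nfe2l1, were also named. Naming was thus not fixed by the test. The genes, lists and rules were chosen with earlier results of these data known. Some genes of the other lists that passed are not reported here. No column was left unused. Alternatives were DESeq2, other scalings, no filter, at least a 2-fold change, fits of 2 groups, a replicate block, chromosome medians removed and each library left out; the GC offset, total counts, upper quartile scaling and crossed numbers were added after the data were seen.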

Additional observations from a re-analysis of the deposited data

Results flagged for a closer look

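In 12 proteasome genes, p62 loss went with opposite directions in liver and in stellate cells with vehicle: every p62KO library lay on one side of every WT library in liver and on the other side in stellate cells. None of the 12 passed the test in either comparison. They are 27.9% of the 43 tested in both tables, against 15.7% of 11218 genes tested in both. Another 7 (16.3%, against 4.58% of all genes) lay below WT without overlap in both: Psmc1, Psmc2, Psmd1, Psmd2, Psmd3, Psmd6 and Psmd14. Both shares carry the liver result, in which 32 of 44 proteasome genes lay below WT, against 19.2% of all genes. In stellate cells with vehicle 27.9% of the 43 lay above WT and 23.3% below, against 34.6% and 34.2% of all genes. Those stellate shares were under the background, so the joint shares are no separate result about stellate cells. The difference between the tissues was not tested, since the tables were scaled separately. In stellate cells the log2 fold changes were 0.975 for Psmg4, 0.519 for Psmb4, 0.485 for Psma2, 0.446 for Psmd4, 0.336 for Psmb6, 0.295 for Psmg1, 0.246 for Psmb3, 0.200 for Psmc5, 0.141 for Psmc3, 0.0816 for Psmd7 and 0.0815 for Psma5. In liver these 11 genes were lower, between -0.494 for Psmb3 and -0.313 for Psmd7. Psmd8 was the reverse, with -0.106 in stellate cells and 0.19 in liver. With calcipotriol the p62KO libraries overlapped WT in Psma5, Psmd7 and Psmd8 and lay above WT in the other 9. Over the 43 genes 34.9% lay above WT without overlap with calcipotriol, against 32.4% of all genes. The 12 were picked by the vehicle libraries of the same cells, so the 9 are no separate support.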

How the results depend on the processing

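Depth limits the tissue-specific subunits, and 2 stellate libraries per group limit every stellate count. In liver the median of the proteasome genes stayed between -0.439 and -0.271 when 1 library was left out. The number called lower was 10 by DESeq2, 1 with the GC offset and 0 to 28 when 1 library was left out, and 3 to 3669 genes were called in all. Over all liver genes the count was 2363 by DESeq2, 462 at 2-fold or more and 639 with the replicate block. Psme1 reversed with total counts (0.124) and upper quartile scaling (0.058) and, when 1 liver was left out, with values of -0.0604 to 0.0197. When 1 liver was left out Psmd10 ranged from -0.0238 to 0.129 and Psma8 from -0.0867 to 0.48. In stellate cells with vehicle, proteasome genes called higher were 1 by DESeq2, 4 in a fit of 2 groups, 2 with the GC offset, 2 with total counts, 1 with upper quartile scaling, 1 with the replicate block and 0 to 5 when 1 library was left out (0 to 2 lower, 238 to 3635 genes in all, median -0.0839 to 0.046). All genes called were 1025 with chromosome medians removed and 3720 with the GC offset, and the median of the proteasome genes was 0.0817 with total counts and 0.0805 with upper quartile scaling. With calcipotriol the genes called higher were 1 at 2-fold or more, 3 with chromosome medians removed, 1 in a fit of 2 groups, 10 with the GC offset (1 lower) and 0 to 13 when 1 library was left out (0 to 9 lower, 272 to 6052 genes in all, median -0.0605 to 0.103). All genes called were 1644, 1469, 1293 and 3775 in these settings, and the median was 0.0896 with chromosome medians removed and 0.156 with the GC offset. With p62KO replicate 1 of the vehicle group and replicate 2 of the calcipotriol group both left out, a setting in which each p62KO group has 1 library assumed to vary like the WT groups, 12 were higher and 6 lower with vehicle (5459 genes in all, median 0.0469) and with calcipotriol (5606 genes, median 0.103), and Psme2 reversed (-0.141 with vehicle, 0.147 for calcipotriol in p62KO cells, 0.0245 for the difference of responses); when 1 library was left out it ranged from -0.142 to 0.559 with vehicle, from -0.695 to 0.000854 for calcipotriol in p62KO cells and from -0.818 to -0.109 for the difference. For calcipotriol in WT cells, all genes called were 16 by DESeq2, 345 in a fit of 2 groups, 3 without a filter, 283 without both libraries and 0 when any 1 library was left out (median -0.0747 to 0.0574). In p62KO cells they were 54 by DESeq2, 1 with the GC offset, 6 without a filter, 5 without both libraries and 0 to 4559 when 1 library was left out, with 0 to 12 proteasome genes higher, 0 to 6 lower and a median of -0.028 to 0.131 (0.126 with the GC offset). For the difference of responses, leaving out 1 library gave 0 to 2514 genes, 0 to 5 proteasome genes higher, 0 to 3 lower and a median of -0.016 to 0.204 (-0.0677 with total counts). The catalytic ratio differed by 0.117 to 0.643 when 1 liver was left out and by 0.459 from sums of levels. A group left with 1 library was assumed to vary like the others, and the cause of these changes was not tested. Same-numbered libraries had r = 0.192, -0.191 and 0.142 in liver; those of the stellate table had r of -0.148 to 0.433 (highest for WT calcipotriol with p62KO vehicle); as not all pairs were above 0.1, the numbers are not taken as pairs; with the replicate block 0 proteasome genes were called in liver (median -0.351), 1 with vehicle and 5 with calcipotriol. The numbers of the p62KO vehicle and calcipotriol libraries had r = -0.148, and with crossed numbers the block called 0 genes, as before.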
